A study of Mus musculus with 2 samples.

Results

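Solute carriers are membrane proteins that move small molecules across the plasma membrane and the membranes of organelles. The deposited table of this series lists 14774 genes, each with at least 100 reads in the control library. Of these, 153 carry a symbol of the form Slc, family number, a and member number, with the mitochondrial Slc25a carriers (37 listed genes) left out. The rule reads the symbol alone, among genes that the deposited table lists. The same pattern of letters also takes Slc9a3r1 and Slc9a3r2, 2 genes for scaffold proteins that bind carriers and transport nothing themselves, and a further 26 listed symbols that begin with Slc but are written differently, such as the Slc35b genes, are outside it. RNA came from C57BL/6 mouse spleen cells selected as CD4+CD25+, labelled regulatory T cells (Tregs), after 5 days of co-culture with SVEC4-10 cells, a mouse endothelial line. In the control group the endothelial cells had received a control oligonucleotide, and in the other group small interfering RNA against Capns1, the gene of the small regulatory subunit of the calpain proteases. Each group is 1 library, called here the control and the knockdown co-culture library, and nothing in the labels says how many mice or cultures each holds. The interfering RNA was given to a single cell line, and how the spleen cells were parted from it before RNA extraction is not described.

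Carriers are grouped by what they move and by what drives them. Some, such as the GLUT glucose carriers, let a solute run down its own gradient, some couple it to sodium or protons, and exchangers trade an inner solute for an outer one. In lymphocytes, carriers for amino acids, glucose, lactate and iron are known to rise on activation, and in macrophages carriers for metals and peptides serve the phagosome and lysosome. Amino acid shortage and stress of the endoplasmic reticulum act through the transcription factor ATF4, which is known to raise a group of amino acid carriers together with enzymes of serine and asparagine synthesis.

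The bases upstream of 2 carrier genes are shown because they hold the core of the element to which ATF4 binds with a C/EBP partner, TGATGNAA on either strand, and because their reads differed between the libraries in opposite directions. Both come from RefSeq on build GRCm38.p6 and are written 5′ to 3′ on the strand of the gene, with the element core, or its reverse complement, in capitals. The stretch of Slc7a11 is chr3:50443623-50443709 on the minus strand and lies 96 to 10 bases before the start of transcription. That of Slc7a7 is chr14:54418048-54418115 on the minus strand and lies 171 to 104 bases before the start.
Slc7a11: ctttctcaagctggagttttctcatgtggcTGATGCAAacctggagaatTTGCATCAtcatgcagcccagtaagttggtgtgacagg
Slc7a7: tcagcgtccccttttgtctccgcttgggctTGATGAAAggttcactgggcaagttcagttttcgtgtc
Slc7a11 has 2 cores in this stretch and Slc7a7 has 1. The same window of Slc7a7 holds a further core outside the stretch shown, which begins at the last base before the start and runs across it. Windows of 300 bases around a start, 250 of them before it, were at hand for 116 of the 153 members, and 8 of these (6.9%) held the core, against 1219 of 27025 genes with a window (4.51%). Such a match describes the letters only, and genes with a window include many that are not listed here.

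Reads of listed genes came to 47724379 and 46938963, control library first, and all 153 members passed the filter on low values. Since each group is 1 library, nothing here can be checked against replicates and p-values are not printed. Where a pair of values is given without further words, the control comes first. A fold here is the ratio of CPM, reads scaled to a library of 1000000, knockdown over control, and its exact 95% interval covers counting error only. PCR copies could not be told from separate molecules. In RNA from mixed cells, fewer cells of a type and less RNA per cell cannot be told apart. Markers of the labelled cell were low, since the 11 measured Treg markers summed to 209.9 and 193 CPM. Most of that sum came from Capg, at 127.3 and 116.9 CPM, and Nrp1, at 39.3 and 33.6 CPM. Foxp3 stood at 5.22 and 4.73 CPM and Il2ra at 5.89 and 5.65 CPM. The 12 measured T cell markers summed to 316 and 317 CPM, and the 12 B and plasma cell markers to 3051 and 2732 CPM. Matrix-producing cell markers, 12 of them, summed to 2871 and 2773 CPM, and the 10 erythroid markers to 2641 and 2383 CPM. For the 13 macrophage and monocyte markers the sums were 1348 and 975 CPM. The carriers described below are those of this RNA as a whole.

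Most carriers differed little between the libraries. No member was at least 2-fold apart, where 0.142% of all listed genes were (0.135% lower, 0.00677% higher). At 1.5-fold with an interval excluding 1 there were 2 members, 1.31% of them, against 1.51% of listed genes (1.22% lower, 0.291% higher), and both were lower. These were Slc7a8 (NCBI Gene 50934), which encodes LAT2, an exchanger of neutral amino acids, with 941 reads in the control library and 460 in that of the knockdown, and Slc15a3 (NCBI Gene 65221), a lysosomal carrier of peptides and histidine, with 1483 reads in the control library and 959 in that of the knockdown. The fold of Slc7a8 was 0.501 (95% interval 0.447 to 0.561), at the edge of the 2-fold limit, which it passed when libraries were scaled by total listed reads or by upper quartile, and that of Slc15a3 was 0.663 (0.610 to 0.719). With the trend of folds on transcript length taken out, Slc15a3 stood at 0.685 (0.631 to 0.744) and no longer passed 1.5-fold, while Slc7a8 stood at 0.509 (0.454 to 0.570).

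Over the 153 members the median log2 fold was -0.04, against 0.00 over all listed genes, and the middle of the members ran from -0.137 to 0.0721 between their quartiles. Intervals lay above 1 for 27 members (17.6%) and below 1 for 38 (24.8%), where the shares over listed genes were 24.2% and 22.7%, or 46.9% together. At a threshold of 25% higher, or lower by the same ratio, 3 members were higher and 7 lower, or 6.54% together, against 7.84% of listed genes (2.94% higher, 4.9% lower). The members together held 380686 and 365345 reads, 7946 and 7814 CPM, a summed fold of 0.983 (0.979 to 0.988). Folds went with transcript length in these libraries, with a Spearman correlation of -0.32 across 13381 genes and -0.24 across the 153 members, which are not independent replicates. The median transcript of the members was 3911 bases and that of all genes with a known length 3375 bases. With the length trend taken out the median log2 fold of the members was -0.01, against 0.02 over all genes with a length. Intervals then lay above 1 for 23.5% of members and below for 18.3%, against 28.1% and 17.3% of all genes with a length.

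Levels ran from 0.300 and 0.280 RPKM for Slc8a1, a sodium-calcium exchanger, to 129.7 and 136 RPKM for Slc3a2, where RPKM is CPM per kilobase of the longest transcript and each pair gives the control first. The most abundant carriers per length were those of amino acids and zinc, with Slc3a2 followed by Slc7a5, Slc39a7 and Slc38a2. Their order was the same in both libraries, with Slc39a7 at 85.3 and 92.2 RPKM and Slc38a2 at 82.5 and 80.3 RPKM, close to each other in the control. The plot of per-length levels places nearly all members along the line of equality.

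**Figure D1:**
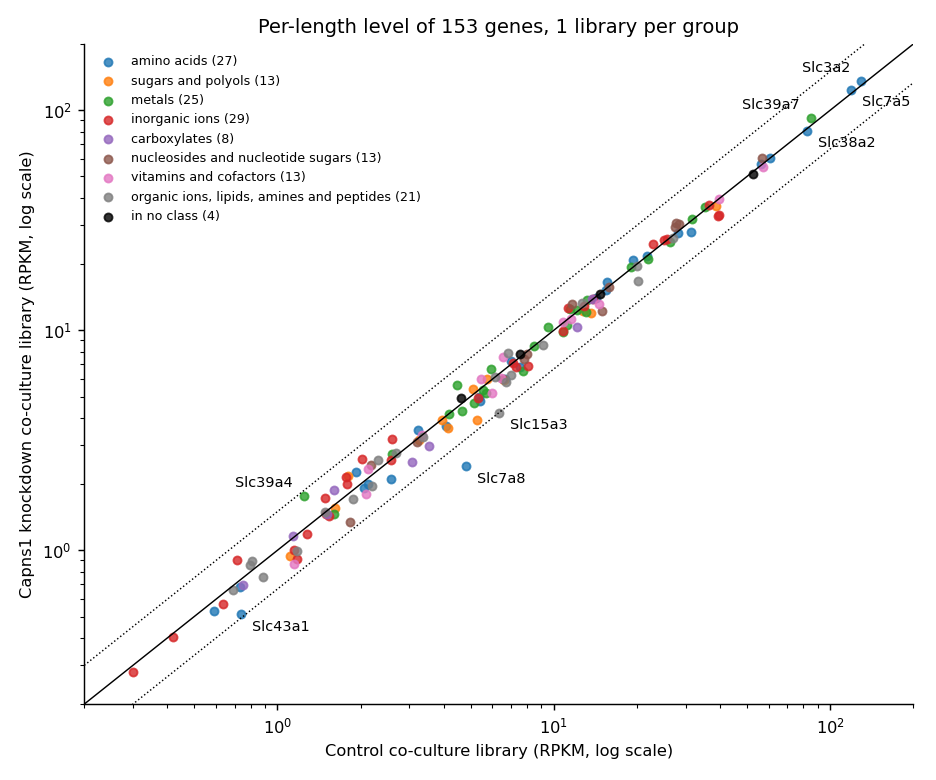
Level of each of the 153 genes in CPM per kilobase of transcript (RPKM), control co-culture library on the x axis and knockdown co-culture library on the y axis, both log scales, coloured by substrate class with the number of genes in brackets. The solid line marks equality and the dotted lines 1.5-fold. Slc7a8 and Slc15a3 lie below the lower dotted line, and no gene lies above the upper one.

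By substrate, the lowest class medians were those of carboxylates, at a log2 fold of -0.08 over 8 genes, and of sugars and polyols, at -0.06 over 13. The medians of vitamins and cofactors (-0.05, 13 genes), organic ions, lipids, amines and peptides (-0.04, 21 genes), amino acids (-0.04, 27 genes) and nucleosides and nucleotide sugars (-0.02, 13 genes) lay between these and the medians of inorganic ions (-0.01, 29 genes) and metals (0.01, 25 genes). The order of the classes depended on the setting. Amino acids had the lowest mean (-0.09), and carboxylates had a median of -0.23 when genes under 5 CPM were left out and -0.17 under a minimum on reads. With the length trend taken out the medians of nucleosides and of inorganic ions lay at 0.05 and 0.04, and that of metals turned to -0.01 with upper quartile scaling. The differences between class medians as first given are smaller than the spread of genes within each class. The SD of log2 folds within a class ran from 0.16 for metals to 0.23 for amino acids, as the plot of folds by substrate class shows. Counts of intervals given below for a class, family or gene list stand beside shares of 24.2% above 1 and 22.7% below over all listed genes.

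**Figure D2:**
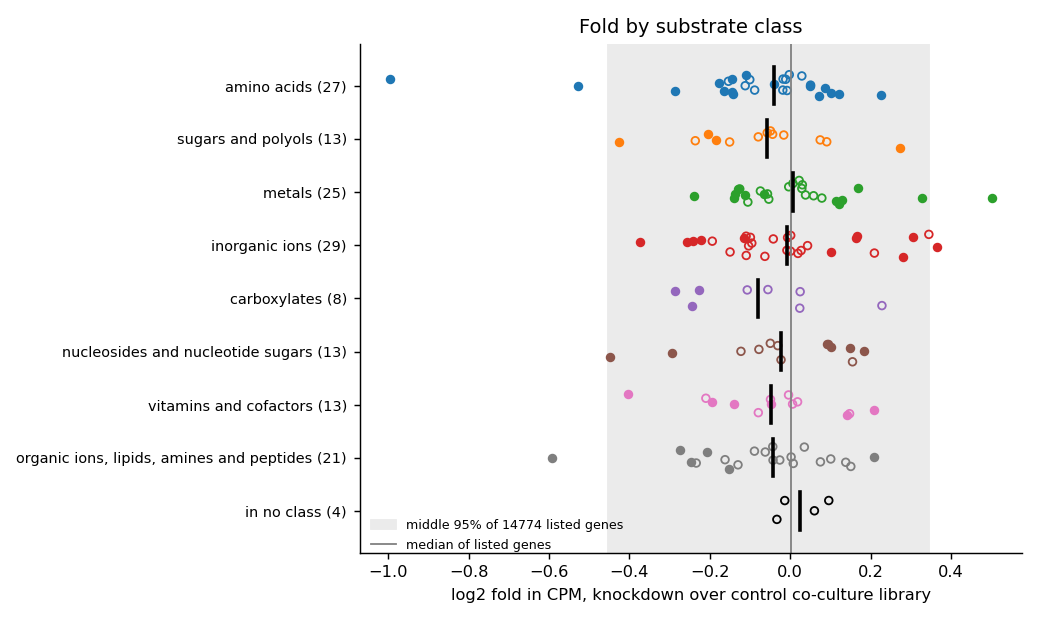
Log2 fold of the knockdown over the control library, in CPM (x axis), for each gene by substrate class (y axis, number of genes in brackets). Filled points have an exact 95% interval that excludes 1, open points include it, and black bars are class medians. The grey band holds the middle 95% of listed genes, from -0.45 to 0.34. Slc7a8, Slc15a3 and Slc43a1 lie to its left, and Slc39a4, Slc24a3 and, at its very edge, Slc12a8 to its right.

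Among amino acid carriers, the CD98 heavy chain and its light chains LAT1 and xCT stood slightly higher in the knockdown co-culture library, while the light chain LAT2 and the sodium-coupled glutamine carrier Slc38a1 stood lower. Of the 27 genes, 6 had intervals above 1 (22.2%) and 10 below (37.0%), against 24.2% and 22.7% of all listed genes. Their summed reads gave a fold of 0.994 (0.986 to 1.001). With the length trend taken out, more intervals of the class lay above 1 than below. Slc3a2, the heavy chain CD98 that brings partner light chains to the cell surface, had 17476 reads in the control library and 17929 in that of the knockdown, a fold of 1.05 (1.03 to 1.07). Its light chain LAT1, Slc7a5, which exchanges glutamine for leucine and other large neutral amino acids, had 20086 and 20297 reads and stood at 1.04 (1.02 to 1.06). Both partners were among the most abundant carriers, and their intervals overlapped.

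Another light chain of CD98 is Slc7a11, or xCT, which imports cystine for glutathione in exchange for glutamate, and whose upstream bases are shown above. It had 1424 and 1511 reads, a fold of 1.09 (1.01 to 1.17). The glycine carrier Slc6a9 had 3234 and 3389 reads and stood at 1.07 (1.02 to 1.13). Slc6a19, a neutral amino acid carrier best known from gut and kidney, had 388 and 443 reads and stood at 1.17 (1.02 to 1.34). The 6 intervals above 1 were completed by Slc1a4, a carrier of alanine, serine and cysteine, named after its value was seen, with 2934 and 3041 reads, at 1.06 (1.01 to 1.12). The glutamine exchanger Slc1a5 (ASCT2) and the arginine and lysine importer Slc7a1 (CAT1) had intervals that included 1, at 0.995 (0.964 to 1.03) from 8162 and 7922 reads and at 1.02 (0.9999 to 1.04) from 19255 and 19171 reads.

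Light chains did not all go the same way. Slc7a8, the LAT2 light chain that also pairs with CD98, was the lowest of all members, as given above. Slc7a7, the y+LAT1 chain for export of cationic amino acids, named after its value was seen, had 280 and 224 reads, a fold of 0.820 (0.685 to 0.981); its upstream bases with the ATF4 element core are shown above. Slc43a1, a facilitated carrier of large neutral amino acids, had 139 and 94 reads and stood at 0.693 (0.528 to 0.907). The sodium-coupled glutamine carriers Slc38a1 and Slc38a2 stood at 0.892 (0.868 to 0.917) from 10913 and 9501 reads and at 0.973 (0.955 to 0.990) from 24177 and 22950 reads. Of the 7 measured SNAT genes, to which these belong, 3 intervals lay below 1 and none above, and the third was that of Slc38a9, the lysosomal arginine sensor, at 0.905 (0.844 to 0.969). Both measured proton-coupled amino acid carriers, Slc36a1 and Slc36a4, had intervals below 1, at 0.905 (0.847 to 0.967) and 0.927 (0.864 to 0.994), and these 3 were named after their values were seen. With the length trend taken out, the intervals of Slc36a1, Slc36a4 and Slc38a9 included 1, at 0.944 (0.883 to 1.01), 0.985 (0.918 to 1.06) and 0.990 (0.923 to 1.06). Under the same change Slc38a1 stood nearer 1, at 0.957 (0.931 to 0.984). Slc38a2 went from below to above 1, at 1.03 (1.01 to 1.05), and Slc7a1 stood at 1.09 (1.07 to 1.12) and Slc7a11 at 1.19 (1.11 to 1.28). The 16 amino acid carriers outside the naming rule, which takes those with intervals farthest from 1, the most abundant and a fixed set, ran from 0.820 to 1.06, with 1 intervals above 1 and 6 below.

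**Figure D3:**
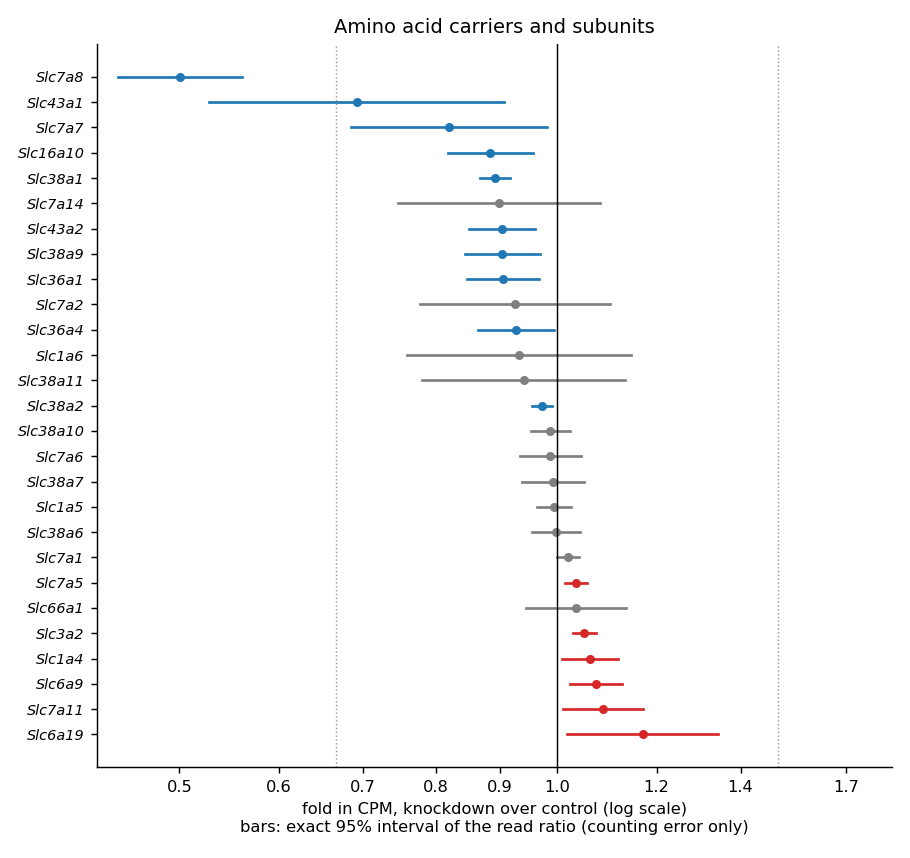
Fold of the knockdown over the control library, in CPM (x axis, log scale), of the 27 amino acid carriers and subunits, ordered by fold. Bars are exact 95% intervals of the read ratio, red above 1, blue below 1 and grey where they include 1. Dotted lines mark 1.5-fold. Slc7a8 stands apart at 0.501, and the 6 genes in red lie between 1.04 and 1.17.

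Most genes of the ATF4 response were slightly higher. All 22 genes of that list were measured, and 19 intervals lay above 1 and 1 below, where 24.2% and 22.7% of all listed genes did. These shares are not on equal terms, since intervals exclude 1 more readily where reads are many. In the control library the list had a median of 132 CPM, against 29.8 CPM over all listed genes. Its median log2 fold was 0.14, with none 1.5-fold apart. Atf4 itself had 23768 reads in the control library and 26737 in that of the knockdown, a fold of 1.15 (1.13 to 1.17), and Phgdh, the first enzyme of serine synthesis, had 21524 and 24653 reads and stood at 1.17 (1.15 to 1.20). The median transcript length of the list was 2056 bases. With the length trend taken out 18 intervals lay above 1 and 0 below, against 28.1% and 17.3% of all genes with a length, and the median was 0.11. The next list holds lysosomal amino acid sensing genes, which signal to the kinase mTORC1. Of its 29 intervals 9 lay above 1 (31.0%) and 7 below (24.1%), and the median was 0.02. Its most abundant members were Sec13, a subunit of the GATOR2 complex, at 1.18 (1.14 to 1.22), and Rheb, the GTPase that activates mTORC1, at 1.10 (1.06 to 1.14). The NRF2 oxidative stress list, whose factor is also known to govern Slc7a11, had 14 genes. Of these 5 lay above 1 (35.7%) and 2 below (14.3%), against 24.2% and 22.7% of all listed genes, with a median of 0.08. Txnrd1, thioredoxin reductase, stood at 1.07 (1.05 to 1.09) and the pentose phosphate enzyme Taldo1 at 1.05 (1.02 to 1.09). The mTORC1 and NRF2 lists too had more reads per gene, with control medians of 49.1 and 67.9 CPM against 29.8 CPM.

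Glucose carriers were close to equal in the libraries. Slc2a1 (GLUT1), the basal glucose carrier of most cells, had 1998 reads in the control library and 1874 in that of the knockdown, a fold of 0.961 (0.902 to 1.02), and Slc2a3 (GLUT3), a carrier of high affinity, had 976 and 924 reads and stood at 0.970 (0.886 to 1.06). Per length, Slc2a1 was the more abundant, at 12.8 and 12.3 RPKM against 3.26 and 3.16 RPKM. Of the 5 GLUT genes measured 1 interval excluded 1, that of Slc2a6, a lysosomal member induced by inflammatory signals in macrophages, with 233 and 275 reads, a fold of 1.21 (1.01 to 1.45). The most abundant sugar carrier per length was Slc50a1, the mammalian member of the SWEET family, at 38.8 and 36.7 RPKM and a fold of 0.946 (0.894 to 1.002), or 0.905 (0.855 to 0.958) with the length trend taken out.

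The Slc37a family, which includes sugar phosphate exchangers of the endoplasmic reticulum, differed more. All 4 Slc37a genes lay below 1, with 3 intervals excluding it, and their summed reads gave a fold of 0.845 (0.813 to 0.879). Slc37a2, abundant in macrophages, had 1503 and 1092 reads, a fold of 0.744 (0.688 to 0.805). Slc37a1 had 790 and 669 reads and stood at 0.868 (0.782 to 0.963), and Slc37a3 had 2624 and 2254 reads and stood at 0.880 (0.832 to 0.931). The remaining 1, Slc37a4, the glucose-6-phosphate carrier of the liver, named after its value was seen, stood at 0.901 (0.810 to 1.002). The 6 sugar and polyol carriers outside the naming rule, Slc37a4 among them, ran from 0.849 to 1.06, with 0 intervals above 1 and 0 below.

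Metal carriers had shares of higher and lower genes near those of all listed genes. Of the 25, 6 intervals lay above 1 and 6 below, against 24.2% and 22.7% of listed genes, and the median log2 fold was 0.01. Their reads gave a summed fold of 1.004 (0.993 to 1.02). With the length trend taken out, more of the 25 intervals lay above 1 than below. Zinc enters the cytosol through ZIP proteins (Slc39a) and leaves it through ZnT proteins (Slc30a). Slc39a4, the ZIP of intestinal zinc uptake, had the highest fold of all members, 1.42 (1.16 to 1.74), from few reads, 164 reads in the control library and 227 in that of the knockdown. The most abundant was Slc39a7, the ZIP that releases zinc from the endoplasmic reticulum and Golgi, with 9941 and 10492 reads, 85.3 and 92.2 RPKM, and a fold of 1.08 (1.05 to 1.11). Slc39a10, which is known to be needed by B cells and to act at the plasma membrane, went the other way, with 2035 and 1683 reads and a fold of 0.847 (0.794 to 0.904). Of the 11 ZIP genes 5 intervals lay above 1 and 3 below, and of the 6 ZnT genes 0 above and 2 below. One of these, Slc30a7, a ZnT of the Golgi, had 2451 and 2185 reads and stood at 0.913 (0.862 to 0.968), and at 1.0004 (0.944 to 1.06) with the length trend taken out. Under that change the other, Slc30a5, stood at 0.970 (0.932 to 1.01). Slc30a4 and Slc30a9 then lay above 1, at 1.07 (1.03 to 1.10) and 1.07 (1.03 to 1.11), and the remaining ZnT intervals included 1. These 3 were named after their values were seen.

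Zinc itself is sensed by the factor MTF1, which turns on metallothioneins and the exporter Slc30a1 through metal response elements. The bases 63 to 17 before the start of Slc30a1, chr1:191906718-191906764 on the plus strand of GRCm38.p6, from RefSeq, are given because they hold 1 core of that element, TGCACNC or TGCGCNC on either strand, in capitals here.
Slc30a1: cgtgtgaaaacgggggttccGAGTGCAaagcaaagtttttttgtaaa
The TGCACNC core was found in 27 of the 116 members with a window (23.3%) and in 14.2% of all genes with one, and TGCGCNC in 33 members (28.4%) and in 4604 of all 27025 genes. Slc30a1 had 1052 and 1024 reads, a fold of 0.997 (0.914 to 1.09). Of the 4 measured genes of zinc buffering and sensing, the most abundant were the metallothionein gene Mt1 at 1.05 (0.993 to 1.11) and Mtf1 at 0.902 (0.849 to 0.959), and in the whole list 1 interval lay above 1 and 2 below.

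All 5 iron and copper carriers had intervals that included 1. Slc11a1 (NRAMP1), which pumps iron and manganese out of the phagosome of macrophages, had 722 reads in the control library and 679 in that of the knockdown, a fold of 0.964 (0.867 to 1.07). Slc11a2 (DMT1), the endosomal importer of iron, had 2567 and 2544 reads and stood at 1.02 (0.961 to 1.07), and Slc40a1 (ferroportin), the iron exporter of red pulp macrophages, had 489 and 504 reads and stood at 1.06 (0.931 to 1.20). The copper importer Slc31a1 had 2620 and 2662 reads and stood at 1.04 (0.986 to 1.10), and at 1.06 (1.004 to 1.12) with the length trend taken out. Among the other genes of iron handling, 13 of 17 were measured, with 3 intervals above 1 and 5 below, and the ferritin chains Ftl1 and Fth1 at 1.06 (1.06 to 1.07) and 0.987 (0.978 to 0.997). Of the 5 measured copper handling genes 2 lay above 1 and 1 below, with Commd1 at 1.06 (0.997 to 1.13) and the copper pump Atp7a at 0.836 (0.781 to 0.895). For magnesium, Slc41a3 had 518 and 635 reads, a fold of 1.26 (1.12 to 1.41), while Slc41a1, a sodium-coupled exporter, had 2435 and 2157 reads and stood at 0.908 (0.856 to 0.962). The 14 metal carriers outside the naming rule ran from 0.909 to 1.12, with 3 intervals above 1 and 3 below.

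**Figure D4:**
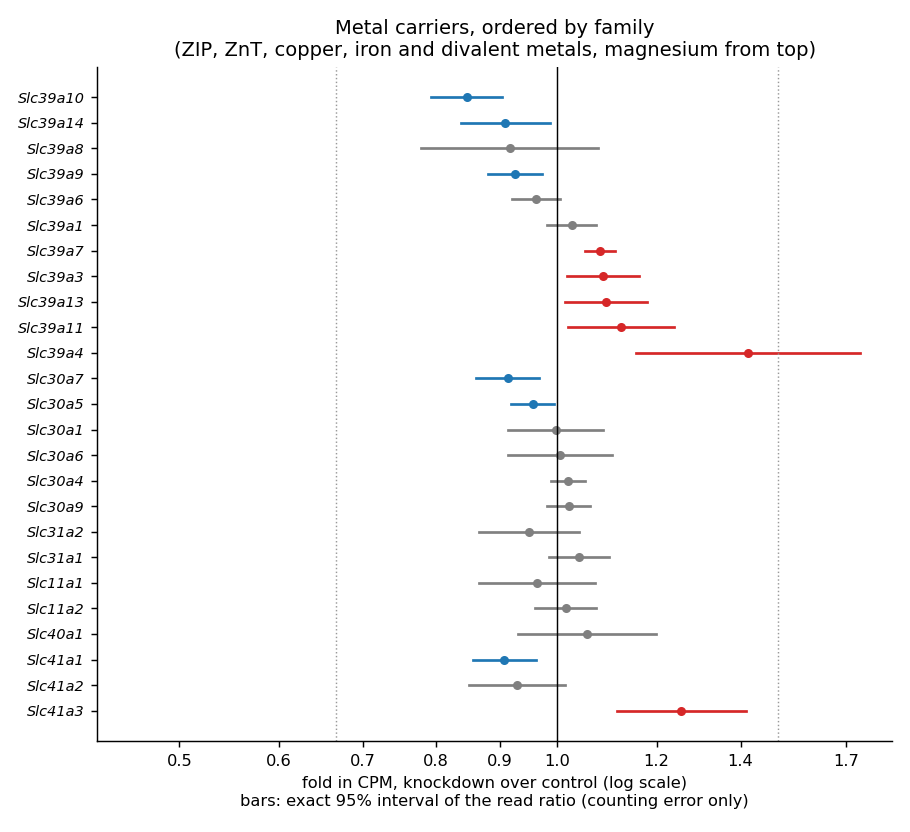
Fold of the knockdown over the control library, in CPM (x axis, log scale), of the 25 metal carriers, ordered by family. Bars are exact 95% intervals of the read ratio, red above 1, blue below 1 and grey where they include 1, and dotted lines mark 1.5-fold. The ZIP family runs from Slc39a10 at 0.847 to Slc39a4 at 1.42, wider than the ZnT family, from 0.913 to 1.02.

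Carriers of inorganic ions had a median near equality, but their summed reads were lower, at a fold of 0.961 (0.950 to 0.972). Slc9a7, a sodium-proton exchanger of the trans-Golgi and the most abundant of the class per length at 39.6 and 33.5 RPKM, had 4763 reads in the control library and 3932 in that of the knockdown and stood at 0.846 (0.811 to 0.883). Slc4a4, a sodium-bicarbonate cotransporter, was lower from few reads, 449 and 338 reads, at 0.771 (0.668 to 0.890). Slc12a2 (NKCC1), which loads chloride across the plasma membrane, lay near 1, at 0.994 (0.937 to 1.06) from 2225 and 2159 reads, and at 1.06 (0.995 to 1.12) with the length trend taken out. The phosphate carrier Slc20a1 (PiT1) had 3975 and 3997 reads and stood at 1.03 (0.986 to 1.08).

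The genes of this class with intervals farthest above 1 had fewer reads. Slc24a3, a potassium-dependent sodium-calcium exchanger, had 392 and 493 reads, a fold of 1.29 (1.13 to 1.48). Slc26a10 had 448 and 540 reads and stood at 1.24 (1.09 to 1.40), and the anion exchanger Slc4a3 had 611 and 725 reads and stood at 1.22 (1.09 to 1.36). In all, 6 of 29 intervals lay above 1 and 5 below, and the 20 genes outside the naming rule ran from 0.857 to 1.27, with 3 intervals above 1 and 2 below. Of the sodium pump subunits and regulators of ion carriers, 18 of 28 listed names were measured, 5 above 1 and 6 below. Wnk1, a kinase that senses chloride and regulates cation-chloride carriers, had 25146 and 21536 reads, a fold of 0.878 (0.862 to 0.894). The scaffold genes Slc9a3r1 and Slc9a3r2, which this list holds too, stood at 0.977 (0.938 to 1.02) from 4860 and 4635 reads and 0.991 (0.921 to 1.07) from 1503 and 1453 reads.

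Of the carboxylate carriers, the lactate carrier MCT4 was lower and MCT1 lay near 1. Slc16a1 (MCT1) had 2905 reads in the control library and 2884 in that of the knockdown, a fold of 1.02 (0.966 to 1.07), and Slc16a3 (MCT4), the lactate exporter of glycolytic cells, had 732 and 603 reads, a fold of 0.844 (0.757 to 0.941). Slc16a6 had 2453 and 2044 reads and stood at 0.854 (0.805 to 0.906), and Slc16a14, whose substrate is not well known, had 473 and 378 reads and stood at 0.819 (0.713 to 0.939). Slc16a3, Slc16a6 and Slc16a14 held the 3 intervals below 1, none of the 8 lay above, and the 4 outside the naming rule ran from 0.928 to 1.17, with 0 intervals above 1 and 0 below. The partners of these carriers went both ways. Bsg, the basigin chaperone of MCT1 and MCT4, had 22680 and 24918 reads, a fold of 1.13 (1.11 to 1.15), and Emb, the chaperone embigin, had 2229 and 1849 reads, a fold of 0.850 (0.799 to 0.904), both named after their values were seen. Ldhb, a lactate dehydrogenase chain, was the 1 gene of this list of 5 at least 1.5-fold apart, with 114 and 176 reads and a fold of 1.58 (1.24 to 2.02), and in all 3 intervals lay above 1 and 1 below.

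Nucleoside and nucleotide sugar carriers had a summed fold of 1.02 (1.01 to 1.04), the highest of the classes, with 5 of 13 intervals above 1 and 2 below. The equilibrative nucleoside carrier Slc29a1 (ENT1) had 2939 and 3180 reads, a fold of 1.11 (1.05 to 1.17). Slc43a3, a purine nucleobase carrier and the most abundant of the class at 56.7 and 60.5 RPKM, had 7116 and 7409 reads and stood at 1.07 (1.03 to 1.10). In the Golgi, Slc35a1, which supplies CMP-sialic acid for sialylation, had 1135 and 1257 reads and stood at 1.13 (1.05 to 1.23), and Slc35a5 had 5749 and 6017 reads and stood at 1.07 (1.03 to 1.11). Lower genes were the sodium-coupled nucleoside carrier Slc28a2, with 2810 and 2238 reads and a fold of 0.816 (0.772 to 0.863), and the monoamine carrier Slc29a4 of the same family as ENT1, with 245 and 175 reads and a fold of 0.732 (0.599 to 0.892). Slc28a2 has a close copy, Slc28a2b, at 1.11 (0.969 to 1.28) from 392 and 426 reads. The sources used here do not say how reads shared by such copies were assigned, so both values are uncertain. The 7 genes of the class outside the naming rule ran from 0.918 to 1.11, with 1 intervals above 1 and 0 below.

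Carriers of vitamins and cofactors had 2 of 13 intervals above 1 and 4 below. The folate carrier Slc19a1 had 895 reads in the control library and 1010 in that of the knockdown, a fold of 1.16 (1.06 to 1.27), and the riboflavin carrier Slc52a2 had 1380 and 1486 reads and stood at 1.10 (1.02 to 1.19). Both vitamin C carriers were lower, Slc23a2 with 4446 and 3937 reads at 0.907 (0.869 to 0.947) and the scarcer Slc23a1 with 167 and 123 reads at 0.755 (0.593 to 0.958). With the length trend taken out Slc23a2 stood at 0.962 (0.921 to 1.004) and Slc44a2, a choline carrier given below, at 0.984 (0.958 to 1.01). Slc46a3, a lysosomal carrier, had 695 and 593 reads and stood at 0.874 (0.782 to 0.977). The choline carriers Slc44a1 and Slc44a2, the latter the most abundant of the class at 57.0 and 55.2 RPKM, stood at 0.967 (0.913 to 1.02) from 2432 and 2294 reads and 0.968 (0.943 to 0.994) from 11140 and 10525 reads. The 6 others of the class ran from 0.864 to 1.11, with 0 intervals above 1 and 0 below.

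The class of organic ions, lipids, amines and peptides had the lowest summed fold, 0.927 (0.911 to 0.943), where all listed genes gave 1.01. Of its 26386 control reads 6002 were those of Slc6a6. Of its 21 intervals 1 lay above 1 (4.76%) and 5 below (23.8%), against 24.2% and 22.7% of all listed genes. The taurine carrier Slc6a6 had 6002 reads in the control library and 4841 in that of the knockdown, a fold of 0.826 (0.796 to 0.858). With the length trend taken out it stood at 0.874 (0.841 to 0.908). Of the peptide and histidine carriers, Slc15a3 was lower as given above, while its close relative Slc15a4, which is known for its part in Toll-like receptor signalling from endolysosomes, had 3789 and 3588 reads and stood at 0.970 (0.927 to 1.02). Per length Slc15a4 was the more abundant, at 26.9 and 26.1 RPKM against 6.36 and 4.21 RPKM. The fatty acid carrier Slc27a1 had 1030 and 871 reads and stood at 0.866 (0.791 to 0.949), the carnitine carrier Slc22a5 had 896 and 879 reads and stood at 1.01 (0.915 to 1.10), and Slc10a3, of the bile acid carrier family, had 661 and 745 reads and stood at 1.15 (1.04 to 1.28). The 15 others of the class ran from 0.842 to 1.11, with 0 intervals above 1 and 2 below. The 4 members in no substrate class ran from 0.977 to 1.07, all with intervals that included 1.

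Cell type markers also differed between the libraries. Of 17 macrophage and monocyte markers 13 were measured, 12 had intervals below 1 and 1 above, and the median log2 fold was -0.69, far below that of any carrier class. Siglec1, the sialoadhesin of tissue macrophages, had 1435 and 590 reads. Slc7a8, Slc15a3, Slc37a2 and Slc7a7 were lower together with these markers. The intervals of Slc11a1 and Slc40a1, which macrophages are also known for, included 1 and so leave their direction undecided. Slc2a6, induced in macrophages as given above, was higher, at a fold of 1.21. These carriers were set beside the markers with their folds known. The part of the macrophage markers in the lower carriers was not tested. B and plasma cell markers had 9 of 12 intervals below 1 and 1 above, a median of -0.15. Neutrophil markers had 8 of 12 intervals above 1 and 4 below, a median of 0.35, with the granule protein gene Mpo at 3599 and 5924 reads, and summed to 469 and 627 CPM.

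The other marker lists had medians between -0.18 and 0.01. Erythroid markers had a median of -0.15 over 10 genes, with 6 intervals below 1 and 1 above. The band 3 anion exchanger of red cells, Slc4a1, was not among the listed genes. T cell markers lay at -0.05 (3 above, 4 below), Treg markers at -0.06 (0 above, 2 below) and matrix-producing cell markers at -0.03 (3 above, 3 below). CD8 T cell markers lay at -0.18 over 3 genes, dendritic cell markers at -0.11 over 7, NK and innate lymphoid markers at 0.01 over 4, megakaryocyte and platelet markers at 0.00 over 4 and endothelial markers at -0.04 over 4 of 14. The megakaryocyte and platelet list held Pf4, platelet factor 4, with 1117 and 455 reads, a fold of 0.417 (0.373 to 0.466), and its summed reads gave 0.778 (0.732 to 0.827). The erythroid list held Sptb, a spectrin chain of red cells, with 285 and 182 reads, a fold of 0.654 (0.540 to 0.791). The plot of pathway and marker lists sets these side by side.

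**Figure D5:**
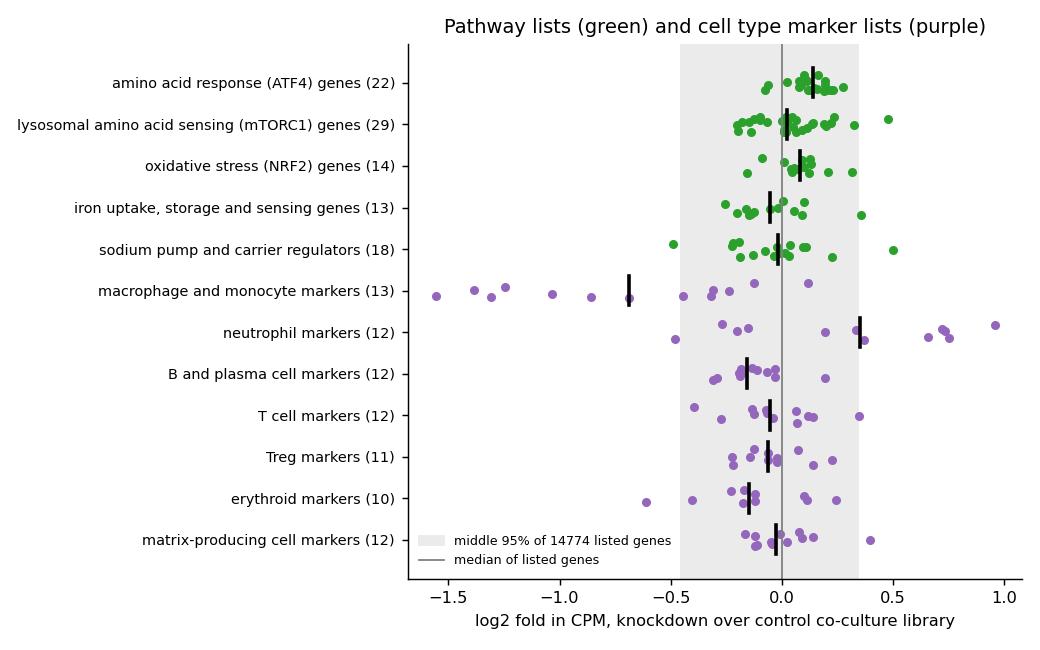
Log2 fold of the knockdown over the control library, in CPM (x axis), of the genes of 5 pathway lists (green) and 7 cell type marker lists (purple), number of measured genes in brackets. Black bars are medians and the grey band holds the middle 95% of listed genes. ATF4 genes cluster just above 0 around a median of 0.14, and macrophage and monocyte markers spread to the left around -0.69.

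Listing in the deposited table needs at least 100 reads in the control library, since every listed gene has them, while knockdown values go down to 37. A carrier that was higher from a control level under 100 reads is therefore not among the members, and counts of higher and lower members are not on equal terms. The scarcest member in the control was Slc8a2, with 106 and 99 reads. Of 294 carriers placed in a substrate class, 149 were measured.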

How the data were processed

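RNA of mouse spleen cells after co-culture was sequenced, 1 library per group, and groups were taken from the treatment labels. Columns were matched to samples by the prefixes Cont and Si, on which the direction of every fold rests. The authors deposited 1 table of mapped read counts per gene, not normalized, per the file headers. They also deposited signal values, reads scaled to equal totals or by a TMM factor, and a log2 ratio per gene, per the file headers and the values. These were not used for results. Trimmomatic 0.39 and BWA 0.7.17 are named in the submitters' processing notes, with 2 genome builds, so no coordinates of the files are given. The sources used here do not give the counter or the use of strand, so overlapping genes cannot be told apart. The deposited totals were 48100576 and 47300284 reads, of which 0.782% and 0.764% belong to no listed gene.

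Library sizes were scaled with TMM (edgeR 4.0.16, R 4.3.3), with size factors of DESeq2 1.42.0 as an alternative. Folds and exact Clopper-Pearson 95% intervals of the read ratio were computed in Python 3.11.15 with scipy 1.17.1, and log2 folds with a prior count of 0.5. Genes needed 1 CPM in a library and 10 reads in both together. A gene was called at 2-fold or 1.5-fold where its interval also excluded 1. With 1 library per group no model test was fitted. Lengths are of the longest GENCODE M21 transcript, known for 13381 genes (90.6%) and all members, and the length trend was a lowess fit over all genes. The code was checked on simulated data.

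The members, substrate classes and lists were chosen with earlier results of these data known. Named carriers were, per class, up to 3 per direction with the interval bound nearer 1 farthest from it, the most abundant per length, every member at 1.5-fold, and a fixed set. Pathway lists add up to 3 genes at 1.5-fold or the 2 most abundant. Of the genes these rules take, 3 are not reported here.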

Additional observations from a re-analysis of the deposited data

How the results depend on the processing

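No paired analysis was possible because each group has 1 library, and no library could be left out. Under 3 other library scalings, 3 other filters, a larger prior count, removal of the length trend, the mean in place of the median, the set without the 2 scaffold genes (chosen after seeing the data), and a lower fold threshold, 437 of 453 recomputed values stayed as reported, within their counting interval or, for counts, within 1.5 times, and none reversed a call at 1.5-fold. A median counted as the same where it moved by less than the median width to either side of its members' intervals. By that rule every class median counted as the same. Yet the carboxylate median ran from -0.23 to -0.05, and those of inorganic ions, nucleosides and metals changed sign in some settings. Class medians could not move without the filter, which all 153 members passed, or without the scaffold genes, which are in no class. The tally therefore does not measure how firm the results are. The count of members at least 2-fold apart was 1 in place of 0 with total listed reads and with upper quartile scaling, namely Slc7a8, and 10 members were apart at the threshold of 25% higher or lower by the same ratio. The count at 1.5-fold was 1 in place of 2 with the length trend removed. The summed fold of amino acid carriers was 0.986 with total listed reads and 0.984 with upper quartile scaling, just under the lower bound of its interval. With the length trend removed, 9 of the 62 named members left their interval, among them Slc38a2, whose whole interval passed from below to above 1 (1.03), and Slc15a3 fell short of 1.5-fold, and 36 members lay above 1 and 28 below, in place of 27 and 38, against 28.1% and 17.3% of all genes with a length. Depth limits the scarcest members, whose intervals are the widest.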
